A study of Mus musculus with 18 samples.

Results

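Ferroptosis is a form of cell death that depends on iron and on the peroxidation of membrane lipids. Here 10 genes that set a cell's sensitivity to it were followed through RNA-seq and Ribo-seq of the embryonic mouse cortex: *Gpx4*, *Slc7a11*, *Slc3a2*, *Gclc*, *Gclm*, *Fth1*, *Ftl1*, *Tfrc*, *Hmox1* and *Acsl4*. They were taken by their Ensembl identifiers, and all 10 were found among the 55153 rows of the RNA-seq table and the 14348 genes with Ribo-seq counts in every library. The genes were chosen by name, as a group, after RNA-seq and Ribo-seq differences of these libraries were known, and which of those values weighed in the choice is not stated. Every call given for them therefore describes these libraries and is not independent evidence.

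The libraries came from mouse cerebral cortices at embryonic day 15.5. The labels give the strain as C57BL/6, while the study's methods describe the floxed lines as being on a mixed background, of C57BL/6 and a further inbred strain, and the Emx1-Cre mice as C57BL/6. The libraries comprised wild-type controls (Ctrl), *Fto*(f/f, Emx1-cre) mice (*F*-cKO) and *Mettl3*(f/f, Emx1-cre) mice (*M*-cKO), with 3 libraries per genotype in RNA-seq and 3 in Ribo-seq, 18 in all. *Fto* encodes an m6A RNA demethylase and *Mettl3* the catalytic subunit of the m6A methyltransferase. Emx1-Cre is active in the cortical neural lineage, so blood vessels, microglia and meninges in the dissected tissue keep both genes. Both knockouts were compared with the same Ctrl libraries, and their calls are therefore given side by side and not set against each other. In bulk tissue, fewer cells of a type and less RNA per cell cannot be told apart.

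GPX4 is a selenoprotein that reduces lipid hydroperoxides with glutathione. Glutathione is made from cysteine, which cells import as cystine, and its synthesis is limited by glutamate-cysteine ligase. Free ferrous iron drives lipid peroxidation, and ferritin stores iron in a harmless form. Ferritin and transferrin receptor mRNAs carry iron-responsive elements, through which the iron regulatory proteins encoded by *Aco1* and *Ireb2* hold back ferritin translation and stabilise *Tfrc* mRNA when iron is scarce.

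Counts per RNA-seq library were between 18504094 and 22592406, and per Ribo-seq library between 10973699 and 35853227, the lowest being *F*-cKO replicate 2. Several libraries stood apart. *Fto* RNA was at 42.5 and 31.8 CPM (read counts scaled to library size, here after TMM scaling) in *F*-cKO replicates 1 and 3 but at 99.2 in replicate 2, against 111 to 146 in Ctrl, while *Fto* footprints were low in all 3 *F*-cKO Ribo-seq libraries (25.6 to 43.1 against 188 to 276 CPM). *Mettl3* RNA counted over the whole gene rose in *M*-cKO (log2 fold change 0.50 ± 0.09 SE, adjusted *P* = 0.00221, edgeR) and its footprints fell by 0.55 ± 0.09 (adjusted *P* = 0.0157, edgeR). Ribo-seq *F*-cKO replicate 2 carried an endothelial signal of 112 RPKM summed over 10 marker genes, against 8.02 to 12.9 RPKM in the other 8 libraries. Genes of the cortical excitatory lineage were present in all libraries, and their RNA-seq level summed over 10 genes was 932 to 1001 FPKM in Ctrl, 1202 to 1227 in *M*-cKO and 1084 to 1125 in *F*-cKO. Each knockout was above Ctrl (exact permutation *P* = 0.1), with 5 of the 10 genes called higher in each and 1 called lower in *M*-cKO. Over all genes tested in RNA-seq, 11.5% were called higher in *F*-cKO, and 15.5% higher and 14.1% lower in *M*-cKO. The part of the lineage genes in the RNA differences given for the knockouts was not tested. Choroid plexus genes varied from 70.8 to 808 FPKM among the Ctrl RNA-seq libraries and erythroid genes from 476 to 880 FPKM, and both knockouts overlapped these ranges. In Ribo-seq *F*-cKO replicate 2, 3 of the genes described here, *Tfrc*, *Slc3a2* and *Acsl4*, also had their highest footprint levels.

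In control cortex the 10 genes covered a wide range of levels. On the per-length FPKM scale of RNA-seq, *Fth1* led with 510 ± 11.6 (SD, n = 3), followed by *Ftl1* (337 ± 15.1), *Gpx4* (69.4 ± 2.88), *Slc3a2* (25.04 ± 0.211), *Tfrc* (11.1 ± 0.900), *Gclc* (9.49 ± 0.400), *Gclm* (6.62 ± 0.177), *Acsl4* (3.95 ± 0.761), *Hmox1* (1.71 ± 0.603) and *Slc7a11* (0.412 ± 0.0779). No neighbours in this order overlapped among the 3 Ctrl libraries. The ferritin chains and *Gpx4* thus stood at percentiles 99.7, 99.5 and 96.1 of the genes tested, and *Slc7a11* at percentile 10.7. This order depends on the division by length. Mean Ctrl CPM was 446 for *Fth1* and 457 for *Ftl1*, and 5.79 for *Slc7a11* and 3.02 for *Hmox1*.

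The footprint order differed for some genes. *Fth1* again led, at 985 ± 186 RPKM (SD, n = 3), and was 15.2 times *Ftl1* (65.0 ± 10.96), compared with 1.51 times in RNA-seq. *Gpx4* (25.7 ± 4.50), *Gclc* (11.8 ± 0.104), *Slc3a2* (10.7 ± 0.810) and *Gclm* (7.82 ± 1.12) followed without overlap. *Hmox1* (3.73 ± 0.770) and *Acsl4* (3.31 ± 0.206) overlapped, *Tfrc* (2.36 ± 0.676) lay below *Acsl4*, and *Slc7a11* was again lowest (1.15 ± 0.306). Without division by length *Slc7a11* was not lowest, as mean Ctrl footprints were 13.1 CPM for *Slc7a11*, 11.9 for *Tfrc* and 5.35 for *Hmox1*. Translation efficiency (TE), here the mean RPKM of a gene in Ribo-seq divided by its mean FPKM in RNA-seq, was 2.79 for *Slc7a11*, 2.18 for *Hmox1* and 1.93 for *Fth1* in Ctrl, all above the median of 0.886 over 13208 genes. It was 0.371 for *Gpx4*, 0.213 for *Tfrc* and 0.193 for *Ftl1*, and the last of these lay at percentile 8.7. Both ferritin chains were thus among the most abundant RNAs of the tissue, but the heavy chain had most of their counted footprints. Reads of near-identical copies of *Ftl1* may be split or left uncounted, and their part in its footprint level was not tested.

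**Figure D1:**
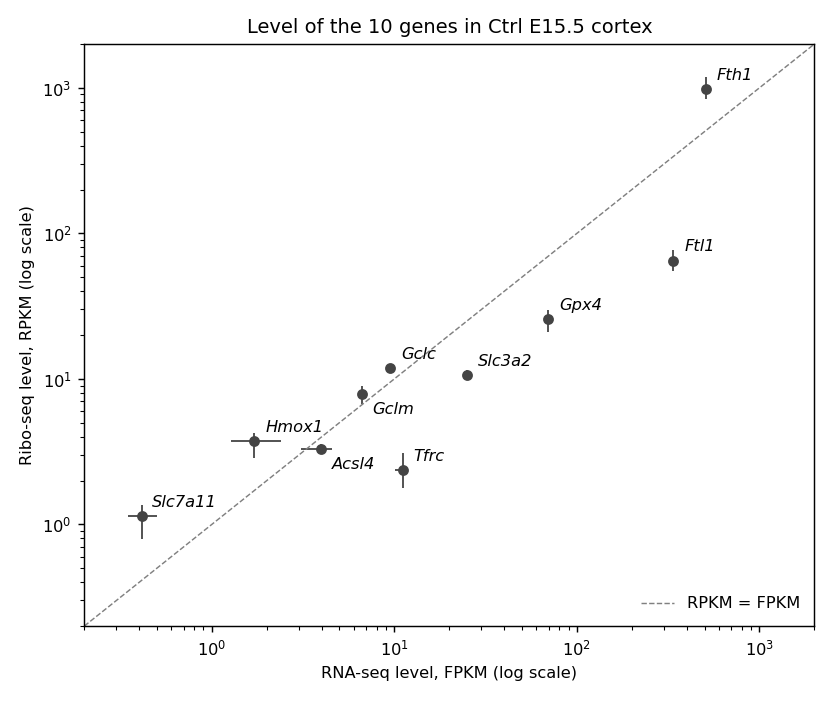
Ribo-seq level (RPKM, log scale) against RNA-seq level (FPKM, log scale) of the 10 genes in Ctrl cortex. Points are means of 3 libraries and bars span the lowest to the highest library, and *Fth1* (510 FPKM, 985 RPKM) and *Ftl1* (337 FPKM, 65.0 RPKM) lie on opposite sides of the dashed line of equal values.

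In *F*-cKO RNA-seq, 1 of the 10 genes was called higher and 2 were called lower at an adjusted *P* below 0.05. Over all 16944 genes tested, 21.1% were called, 11.5% higher and 9.57% lower. The libraries of both groups did not overlap for 5 of the 10 genes, against 41.7% of all genes. In *M*-cKO RNA-seq, 1 gene was called, lower, where 29.6% of all 16968 genes were called, 15.5% higher and 14.1% lower. There 1 of the 10 did not overlap, against 44.7% of all. In Ribo-seq, *M*-cKO had 3 genes called lower, and the same number without overlap. The background was 14.6% of genes called, 7.13% higher and 7.5% lower, and 39% without overlap. *F*-cKO had none of the 10, and none of 14335 genes was called there by edgeR, with 318 at an unadjusted *P* below 0.05 and 6 called by DESeq2. None of the 10 was without overlap there, against 7.86% of all genes. The deleted gene *Fto* was itself not called in *F*-cKO footprints (-2.67 ± 0.25, adjusted *P* = 0.350, edgeR) or TE (-1.51 ± 0.52, adjusted *P* = 0.472). The lack of calls in these comparisons therefore does not show a lack of change. By edgeR, no gene of the 10 was called for TE in *F*-cKO (background 0%, with 1228 genes at an unadjusted *P* below 0.05 and 44 called by DESeq2) or in *M*-cKO (background 3.07%, 1.89% higher and 1.18% lower), while DESeq2 called 1 of the 10 in *M*-cKO, *Gpx4*, and 1037 genes in all. The log2 fold changes of the 10 genes had a median of -0.06 in *F*-cKO and 0.07 in *M*-cKO RNA-seq, against -0.01 and -0.01 over all genes, and a median of -0.05 in *M*-cKO Ribo-seq, against -2.840e-04 over all genes. Leaving out a library gave 1 or 2 calls in *F*-cKO RNA-seq, and from 0 to 2 in *M*-cKO RNA-seq and in *M*-cKO Ribo-seq, and the libraries behind these changes are named with each gene.

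**Figure D2:**
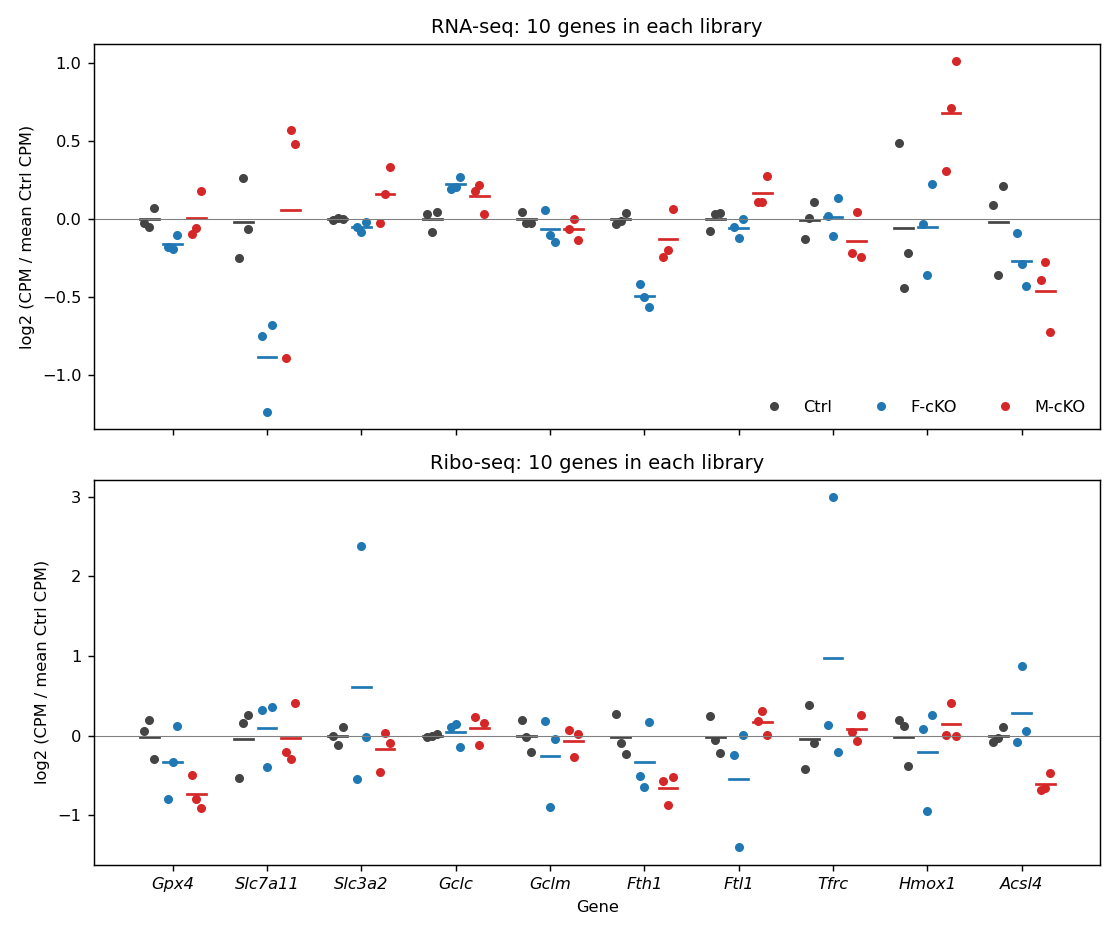
Level of each gene in each library, as log2 of its CPM over the mean Ctrl CPM, in RNA-seq (top) and Ribo-seq (bottom, with a wider axis). Points are libraries, bars are means of the log2 values of 3 libraries, and the 3 *F*-cKO libraries lie below all Ctrl libraries for *Fth1* and *Slc7a11* RNA while the 3 *M*-cKO libraries lie below them for *Gpx4*, *Fth1* and *Acsl4* footprints.

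*Gpx4* (ENSMUSG00000075706, GRCm38.p6 chromosome 10, 80047166 to 80056439) is the glutathione peroxidase that detoxifies phospholipid hydroperoxides. Its RNA was at 119, 117 and 127 CPM in the 3 Ctrl libraries, at 107, 106 and 113 in *F*-cKO and at 113, 116 and 137 in *M*-cKO. The *F*-cKO libraries were all below Ctrl, by a log2 fold change of -0.16 ± 0.06 that was not called (adjusted *P* = 0.0869, edgeR), and the *M*-cKO libraries overlapped Ctrl (0.01 ± 0.08, adjusted *P* = 0.957). The processed pseudogene *Gpx4-ps2* held RNA-seq counts equal to 22.5% of those of *Gpx4*, and reads of near-identical copies may be split between them.

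Footprints on *Gpx4* were at 37.7, 41.8 and 29.6 CPM in Ctrl, and at 25.9, 21.0 and 19.4 in *M*-cKO. All 3 *M*-cKO libraries were below all Ctrl libraries. *Gpx4* footprints fell by 0.74 ± 0.17 on the log2 scale in *M*-cKO (adjusted *P* = 0.0300, edgeR), with no such shift in its RNA, and its TE ratio was 0.218 in *M*-cKO against 0.371 in Ctrl. The TE difference itself, -0.68 ± 0.19, was not called by edgeR (adjusted *P* = 0.0624) and was called by DESeq2 (-0.71, adjusted *P* = 0.0104). The edgeR fit called it without Ribo-seq Ctrl replicate 3 (-0.81, adjusted *P* = 0.0205) or *M*-cKO replicate 1 (-0.81, adjusted *P* = 0.0322). In *F*-cKO the footprints spread from 20.9 to 39.4 CPM and overlapped Ctrl. The footprint call was lost without Ctrl replicate 1 (adjusted *P* = 0.0922), Ctrl replicate 2 (0.119), *M*-cKO replicate 2 (0.0675) or *M*-cKO replicate 3 (0.0505), while the log2 fold change stayed between -0.85 and -0.63. It was also lost when all 3 genotypes shared a fit (adjusted *P* = 0.202). In the same *M*-cKO Ribo-seq libraries the summed endothelial genes (8.18 to 10.4 RPKM), meningeal genes (5.59 to 32.7 RPKM) and microglial genes (17.3 to 41.1 RPKM) overlapped Ctrl (9.32 to 12.9, 24.0 to 45.1 and 23.4 to 36.4 RPKM). Of the 10 excitatory lineage genes, 4 were called higher and 1 lower there, against 7.13% and 7.5% of all genes. Their sum overlapped Ctrl (922 to 1125 against 1002 to 1131 RPKM), and their part in the footprint differences of *Gpx4*, *Fth1* and *Acsl4* was not tested. *Gpx4-ps2* was listed at no more than 1.00 RPKM in any Ribo-seq library. Over the 9 RNA-seq libraries, the genes whose log2 CPM ran most like that of *Gpx4* were *Rps25* (Pearson's r = 0.949), *Hint1* (0.948) and *Rpl11* (0.943), of which *Rps25* and *Rpl11* encode ribosomal proteins.

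*Slc7a11* (ENSMUSG00000027737, chromosome 3, 50364936 to 50499087) encodes the light chain of the cystine/glutamate antiporter that supplies cysteine for glutathione. It is a known target of the stress-responsive factors ATF4 and NRF2. The 250 bases ahead of the *Slc7a11* start listed by RefSeq for GRCm38.p6 (chr3:50443614-50443863, minus strand) are shown because *Slc7a11* RNA changed most of the 10 genes in *F*-cKO and because this window holds 2 copies of the amino acid response element core TGATGCAA, in capitals, at positions -66 and, on the opposite strand, -47. Of 32851 such windows in mouse, 0.791% hold this core on either strand and 2 hold it more than once. For comparison, the window ahead of *Gclm* (chr3:122245307-122245556, plus strand), a classical NRF2 target, has the antioxidant response element core TGACNNNGC in capitals on its opposite strand, at position -134, as do 10.2% of windows on either strand. Of the 10 genes, 8 had a window, and none of the other windows held either core. A match is a description of the letters and not a binding site.
Slc7a11: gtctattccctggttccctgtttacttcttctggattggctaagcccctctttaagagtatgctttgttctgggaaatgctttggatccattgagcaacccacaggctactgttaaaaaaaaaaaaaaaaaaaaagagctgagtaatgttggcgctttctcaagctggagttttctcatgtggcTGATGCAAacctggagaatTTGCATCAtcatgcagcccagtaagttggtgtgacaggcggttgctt
Gclm: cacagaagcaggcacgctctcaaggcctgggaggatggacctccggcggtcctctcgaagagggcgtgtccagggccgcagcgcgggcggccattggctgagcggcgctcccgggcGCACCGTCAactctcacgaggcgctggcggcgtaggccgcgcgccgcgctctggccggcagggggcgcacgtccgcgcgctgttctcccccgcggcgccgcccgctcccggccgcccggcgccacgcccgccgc

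*Slc7a11* RNA was at 4.87, 6.96 and 5.53 CPM in Ctrl and at 3.45, 2.46 and 3.62 in *F*-cKO, from 50 to 147 reads per library. The *F*-cKO libraries were all below Ctrl. The fitted level was 0.549 of Ctrl (log2 fold change -0.86 ± 0.22, adjusted *P* = 0.0220, edgeR), and the call was lost without Ctrl replicate 2 (adjusted *P* = 0.0720), Ctrl replicate 3 (0.0580) or *F*-cKO replicate 2 (0.0771), and with all 3 genotypes in a fit (0.0773). In *M*-cKO the RNA was at 3.12, 8.61 and 8.09 CPM, with replicate 1 below and the other libraries above all Ctrl libraries, and no difference was called (0.18 ± 0.31, adjusted *P* = 0.708). RNA of *Atf4*, the factor that binds the amino acid response element, was between 60.5 and 66.8 FPKM in *F*-cKO and between 67.1 and 69.6 FPKM in Ctrl, and its difference was not called (log2 fold change -0.13 ± 0.06, adjusted *P* = 0.146). *Atf4* footprints were between 18.4 and 23.95 RPKM in *F*-cKO and between 19.2 and 26.5 RPKM in Ctrl, with overlap.

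Genes of the meninges moved with *Slc7a11* RNA. The summed level of 10 meningeal genes was 17.4, 34.4 and 17.8 FPKM in Ctrl, 11.3, 4.73 and 13.1 FPKM in *F*-cKO, and 9.82, 34.3 and 44.8 FPKM in *M*-cKO. *F*-cKO was below Ctrl in all libraries (two-sided exact permutation test, *P* = 0.1, the smallest that 3 against 3 libraries allow), and 5 of the 10 meningeal genes were called lower. None of the 10 was at 0 in any group, and *Col1a1* was at 2.72 to 5.36 FPKM in Ctrl and 0.656 to 2.07 FPKM in *F*-cKO. The genes most like *Slc7a11* over the 9 RNA-seq libraries were *Slc6a13* (Pearson's r = 0.990), which is itself in the meningeal list, *Islr* (0.984) and *Gjb6* (0.983). The summed level of endothelial genes was also lower in *F*-cKO RNA-seq (51.8 to 58.0 against 65.0 to 70.5 FPKM summed over 10 genes), as was that of microglial genes (22.4 to 33.3 against 33.3 to 45.9 FPKM), each with an exact permutation *P* of 0.1. Of these, 3 of 10 endothelial genes and 1 of 10 microglial genes were called lower, against 9.57% of all genes. The part of these cells in the *Slc7a11* difference was not tested.

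Footprints on *Slc7a11* showed no called difference in *F*-cKO (log2 fold change 0.14 ± 0.31, adjusted *P* = 0.873, edgeR). They were at 9.08, 14.6 and 15.6 CPM in Ctrl, 16.3, 9.98 and 16.7 in *F*-cKO, and 11.3, 10.7 and 17.4 in *M*-cKO. The groups overlapped throughout. The TE difference in *F*-cKO was 0.97 ± 0.38 on the log2 scale (unadjusted *P* = 0.0295, adjusted *P* = 0.522, edgeR), with a TE ratio of 5.45 against 2.79 in Ctrl. The meningeal sum in Ribo-seq was 20.0 to 52.9 RPKM in *F*-cKO and 24.0 to 45.1 RPKM in Ctrl. *F*-cKO replicate 2 had the highest of these sums and the lowest *Slc7a11* footprint level of its group.

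**Figure D3:**
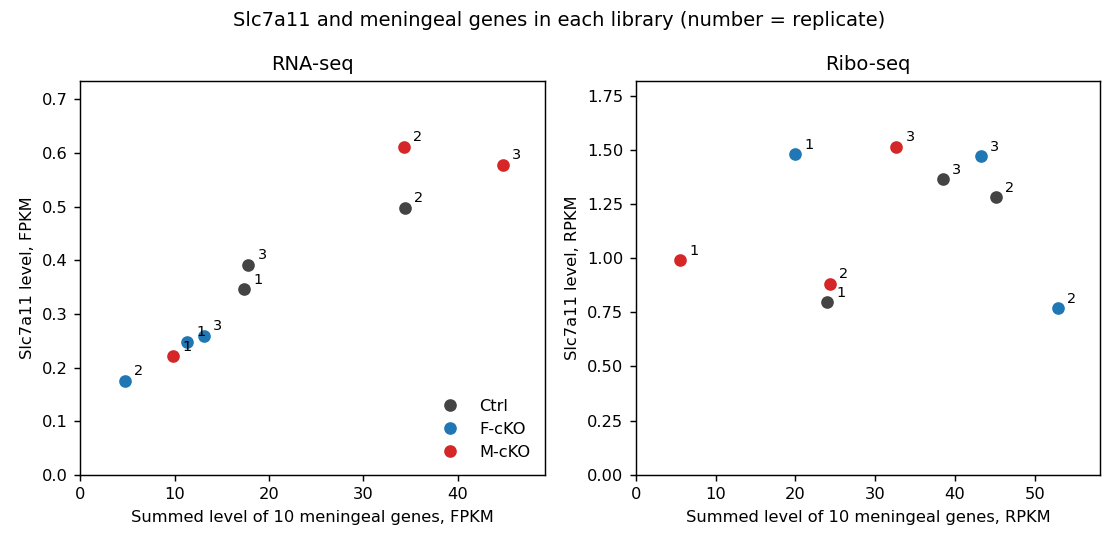
*Slc7a11* level against the summed level of 10 meningeal genes in each library, in FPKM for RNA-seq (left) and RPKM for Ribo-seq (right). Numbers are replicates, and the RNA-seq libraries run from *F*-cKO replicate 2 (0.176 FPKM, meningeal sum 4.73 FPKM) to *M*-cKO replicates 2 and 3 (0.612 and 0.578 FPKM, sums 34.3 and 44.8 FPKM).

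*Slc3a2* (ENSMUSG00000010095, chromosome 19, 8706882 to 8723369) encodes the heavy chain that brings SLC7A11 and other amino acid transporters to the membrane. Its RNA was at 88.8, 89.6 and 89.3 CPM in Ctrl, 86.1, 84.4 and 88.2 in *F*-cKO, and 87.8, 99.98 and 113 in *M*-cKO. The *F*-cKO libraries were all below Ctrl by a small margin (log2 fold change -0.05 ± 0.05, adjusted *P* = 0.541, edgeR), and in *M*-cKO replicates 2 and 3 were above it (0.16 ± 0.09, adjusted *P* = 0.188). Without *M*-cKO replicate 1 it was called higher in *M*-cKO, both against Ctrl (0.25, adjusted *P* = 0.0364) and against *F*-cKO (0.30, adjusted *P* = 0.0277), and the latter was also called with no filter on low counts (0.22, adjusted *P* = 0.0339). The endothelial sum in *M*-cKO replicates 1, 2 and 3 was 55.6, 67.0 and 75.8 FPKM, in the same order as *Slc3a2*, and its part was not tested. Footprints were at 31.0, 28.5 and 33.4 CPM in Ctrl and 22.5, 31.6 and 29.0 in *M*-cKO, with overlap. *F*-cKO footprints were at 21.2, 161 and 30.5 CPM, and the log2 fold change of 1.19 ± 0.74 became -0.26 ± 0.19 without replicate 2. *Slc3a2* is also expressed by brain endothelium, whose marker *Cldn5* was at 46.5 RPKM in that library and at 2.83 to 5.19 RPKM in the other Ribo-seq libraries, and the part of these cells was not tested.

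The enzyme subunits of glutathione synthesis changed little. *Gclc* (ENSMUSG00000032350, chromosome 9, 77754535 to 77794489), the catalytic subunit of glutamate-cysteine ligase, was at 36.9, 34.1 and 37.2 CPM in Ctrl RNA-seq and at 41.3, 41.6 and 43.6 in *F*-cKO. The *F*-cKO libraries were all above Ctrl and the gene was called higher, 1.17-fold (log2 fold change 0.22 ± 0.07, adjusted *P* = 0.0476, edgeR). The call was lost when any of the 6 libraries was left out, with adjusted *P* between 0.0661 and 0.137, with DESeq2 (0.0613) and with no filter on low counts (0.0904). In *M*-cKO *Gclc* RNA was at 41.0, 42.1 and 37.0 CPM, overlapping Ctrl (0.14 ± 0.08, adjusted *P* = 0.206). Its footprints were at 36.2, 36.4 and 37.0 CPM in Ctrl, 39.5, 40.4 and 33.2 in *F*-cKO and 43.0, 33.5 and 40.9 in *M*-cKO. Both knockouts thus overlapped Ctrl in footprints, with log2 fold changes of 0.04 ± 0.15 and 0.08 ± 0.11.

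*Gclm* (ENSMUSG00000028124, chromosome 3, 122245487 to 122267215), the modifier subunit that raises the enzyme's affinity for its substrates, was at 41.4 to 43.4 CPM in Ctrl RNA-seq, against 38.3 to 42.2 in *M*-cKO libraries and 38.0 to 43.7 in those of *F*-cKO. These ranges overlapped, and the log2 fold change was -0.06 ± 0.08 for *F*-cKO and -0.07 ± 0.07 for *M*-cKO, neither of them called. Footprints were at 34.9 to 46.2 CPM in Ctrl and 33.3 to 42.3 in *M*-cKO. *F*-cKO replicate 2 was lowest of all at 21.5 CPM. RefSeq places the lncRNA *Gm46822* and the pseudogene *Gm6061* in overlap with *Gclm*, and reads in the overlap may be split.

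*Fth1* (ENSMUSG00000024661, chromosome 19, 9980600 to 9985111) encodes the ferritin heavy chain, whose ferroxidase site oxidises iron for storage. In Ctrl its RNA was at 437, 442 and 458 CPM, in *F*-cKO at 335, 316 and 301, and in *M*-cKO at 376, 389 and 466. All *F*-cKO libraries were below all Ctrl libraries, and *Fth1* RNA fell by 0.49 ± 0.06 on the log2 scale, to 0.711 of Ctrl (adjusted *P* = 0.00293, edgeR). This call was kept in all 6 fits that left out a library. The endothelial, microglial and meningeal sums given above were lower in the same *F*-cKO libraries, and their part in the *Fth1* difference was not tested. In *M*-cKO the libraries overlapped Ctrl through replicate 3 and no difference was called (-0.13 ± 0.08, adjusted *P* = 0.275). Without that replicate the log2 fold change was -0.22 and was called (adjusted *P* = 0.0158).

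Footprints on *Fth1* were at 846, 655 and 596 CPM in Ctrl, 489, 445 and 785 in *F*-cKO, and 469, 380 and 486 in *M*-cKO. All *M*-cKO libraries were below all Ctrl libraries, and footprints fell by 0.68 ± 0.16 on the log2 scale (adjusted *P* = 0.0314, edgeR). *F*-cKO replicate 3 lay among the Ctrl libraries, and no difference was called in *F*-cKO (-0.29 ± 0.26, adjusted *P* = 0.735). The *M*-cKO call was lost without Ctrl replicates 1, 2 or 3 (adjusted *P* = 0.0806, 0.0967 and 0.0580) or *M*-cKO replicates 1 or 2 (0.0740 and 0.0686), and with all 3 genotypes in a fit (0.212). The log2 fold change stayed between -0.76 and -0.51 with any library left out. The TE ratio of *Fth1* was 1.31 in *M*-cKO and 1.93 in Ctrl, a difference of -0.48 ± 0.18 that was not called (adjusted *P* = 0.153). The copy *Fth-ps2* held RNA-seq counts equal to 0.0149% of those of *Fth1*.

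*Ftl1* (ENSMUSG00000050708, chromosome 7, 45457944 to 45459886), the ferritin light chain that helps iron to mineralise in the shell, was not called against Ctrl in either knockout, in RNA or in footprints. Its RNA was at 434, 467 and 469 CPM in Ctrl, 440, 419 and 457 in *F*-cKO, and 493, 492 and 552 in *M*-cKO. *F*-cKO overlapped Ctrl (log2 fold change -0.06 ± 0.06, adjusted *P* = 0.549, edgeR), while all *M*-cKO libraries were above it without a call (0.16 ± 0.07, adjusted *P* = 0.104). The ratio of *Fth1* to *Ftl1* FPKM was 1.56, 1.47 and 1.51 in Ctrl, 1.18, 1.17 and 1.02 in *F*-cKO and 1.18, 1.22 and 1.31 in *M*-cKO. The 3 *F*-cKO libraries were below all Ctrl libraries, as were the 3 *M*-cKO libraries, where neither gene was called. The pseudogene *Ftl1-ps1* held RNA-seq counts equal to 9.12% of those of *Ftl1*, and reads of near-identical copies may be split between them. The level of *Ftl1-ps1* ranged from 18.6 to 38.4 FPKM in *F*-cKO and from 33.7 to 38.7 FPKM in Ctrl. In Ribo-seq it was listed at no more than 0.0652 RPKM in any library.

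*Ftl1* footprints were at 84.4, 68.5 and 61.2 CPM in Ctrl, 60.4, 27.0 and 72.0 in *F*-cKO, and 80.9, 88.3 and 71.8 in *M*-cKO. Both knockouts overlapped Ctrl, with log2 fold changes of -0.42 ± 0.36 and 0.15 ± 0.14. The *F*-cKO value became -0.11 ± 0.17 without replicate 2. The ratio of *Fth1* to *Ftl1* RPKM was 14.8 to 15.5 in Ctrl and 6.66 to 10.5 in *M*-cKO. It was 12.5, 25.5 and 16.9 in *F*-cKO, on both sides of Ctrl. In *M*-cKO the heavy chain thus lost footprints relative to the light chain in all 3 libraries.

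*Tfrc* (ENSMUSG00000022797, chromosome 16, 32608896 to 32632794) encodes the transferrin receptor, the main route of iron uptake. Its RNA was at 63.4 to 74.8 CPM in Ctrl, against 58.5 to 71.3 in *M*-cKO libraries and 64.1 to 76.1 in those of *F*-cKO. The ranges overlapped, and neither the log2 fold change in *F*-cKO (0.02 ± 0.09) nor that in *M*-cKO (-0.14 ± 0.09) was called. Footprints were at 8.94, 15.6 and 11.2 CPM in Ctrl, 13.0, 95.04 and 10.4 in *F*-cKO, and 12.3, 11.3 and 14.3 in *M*-cKO. Replicate 2 of *F*-cKO stood far above all others, and the log2 fold change of 1.72 ± 0.87 (adjusted *P* = 0.730) became -0.03 ± 0.26 without it. *Tfrc* is abundant in brain endothelium, whose markers were high in the same library, and their part in this value was not tested.

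*Hmox1* (ENSMUSG00000005413, chromosome 8, 75093618 to 75100593) encodes the inducible haem oxygenase, which releases iron from haem. Between 47 and 134 reads per RNA-seq library gave 4.24, 2.22 and 2.60 CPM in Ctrl, 2.96, 2.36 and 3.53 in *F*-cKO, and 3.75, 4.96 and 6.09 in *M*-cKO. *M*-cKO replicates 2 and 3 were above all Ctrl libraries, and the log2 fold change of 0.69 ± 0.26 was not called (adjusted *P* = 0.0683, edgeR). It was called without Ctrl replicate 1 (1.02, adjusted *P* = 0.0208), without *M*-cKO replicate 1 (0.87, adjusted *P* = 0.0341) and with no filter on low counts (0.71, adjusted *P* = 0.00787). In *M*-cKO replicates 1, 2 and 3 the summed microglial genes were at 30.1, 47.1 and 53.5 FPKM and the meningeal genes at 9.82, 34.3 and 44.8 FPKM, in the same order as *Hmox1*. Erythroid sums (490, 590 and 730 FPKM) and choroid plexus sums (437, 510 and 598 FPKM) had this order too. In Ctrl the microglial sums (33.3, 45.9 and 35.8 FPKM) and meningeal sums (17.4, 34.4 and 17.8 FPKM) did not share the order of *Hmox1*. In *F*-cKO the meningeal sums did and the microglial sums did not. The part of these cells was not tested. Footprints were at 4.10 to 6.11 CPM in Ctrl and 5.34 to 7.10 in *M*-cKO, with overlap and a log2 fold change of 0.12 ± 0.23. In *F*-cKO neither RNA (-0.04 ± 0.28) nor footprints (-0.10 ± 0.38) were called.

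*Acsl4* (ENSMUSG00000031278, chromosome X, 142317993 to 142390802) activates polyunsaturated fatty acids for the membrane lipids that peroxidise in ferroptosis. Its RNA was at 23.0, 16.8 and 24.97 CPM in Ctrl, 20.3, 17.7 and 16.0 in *F*-cKO, and 16.5, 17.9 and 13.1 in *M*-cKO. Ctrl replicate 2 lay among the knockout libraries, so the groups overlapped. *Acsl4* RNA was called lower in *M*-cKO (log2 fold change -0.46 ± 0.15, adjusted *P* = 0.0423, edgeR) and not in *F*-cKO (-0.26 ± 0.15, adjusted *P* = 0.234). The *M*-cKO call was lost without Ctrl replicate 1 (0.129) or 3 (0.166) and without *M*-cKO replicate 1 (0.0714), 2 (0.0502) or 3 (0.146), and was kept at -0.60 without Ctrl replicate 2 (adjusted *P* = 0.00619).

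*Acsl4* footprints separated *M*-cKO from Ctrl. They were at 13.9, 14.3 and 15.8 CPM in Ctrl, at 13.9, 26.9 and 15.2 in *F*-cKO, and at 9.12, 9.33 and 10.6 in *M*-cKO. All *M*-cKO libraries were below all Ctrl libraries, and footprints fell by 0.62 ± 0.13 on the log2 scale, to 0.650 of Ctrl (adjusted *P* = 0.0247, edgeR). RNA and footprints differed in the same direction, and the TE difference was -0.09 ± 0.22 (adjusted *P* = 0.846). The footprint call was kept only without *M*-cKO replicate 3 (adjusted *P* = 0.0242) and was lost without any other library (0.0540 to 0.101), with the log2 fold change between -0.69 and -0.55. It was also lost with the genotypes in a single fit (0.281).

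**Figure D4:**
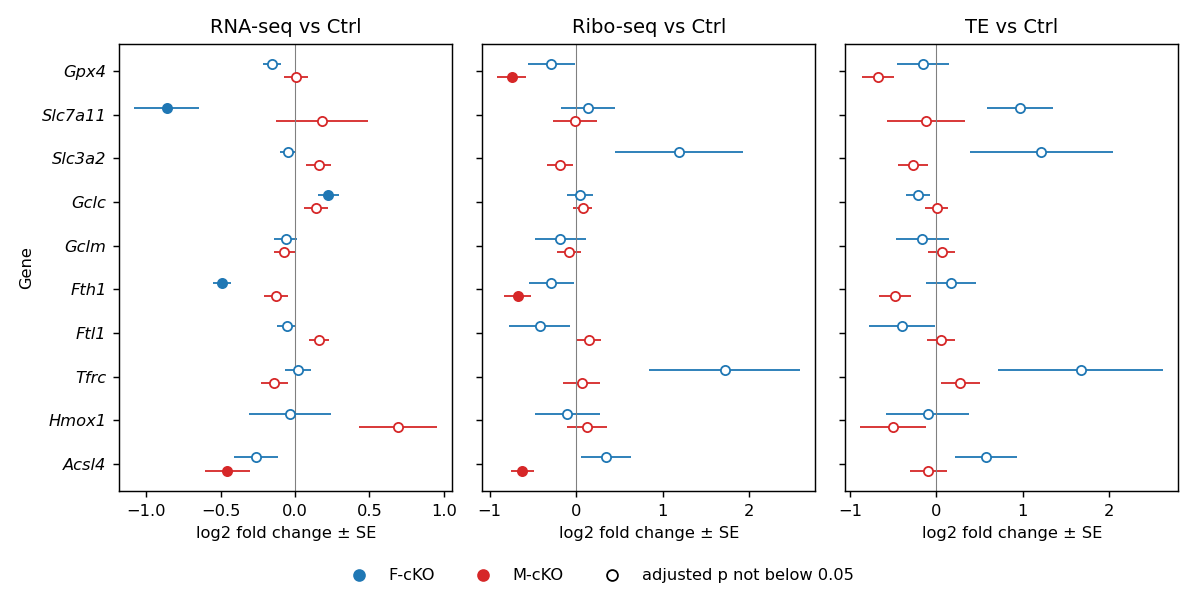
Log2 fold change ± SE of each gene against Ctrl in RNA-seq, Ribo-seq and TE, from edgeR fits over all genes (3 libraries per group and assay). Filled points have an adjusted *P* below 0.05, and these are *Slc7a11*, *Gclc* and *Fth1* in *F*-cKO RNA-seq, *Acsl4* in *M*-cKO RNA-seq and *Gpx4*, *Fth1* and *Acsl4* in *M*-cKO Ribo-seq.

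The knockouts were also compared directly. In RNA-seq, 3 of the 10 genes were higher in *M*-cKO than in *F*-cKO, against 27.4% of all genes called in either direction, 13.1% higher and 14.3% lower. Of the 10, 4 did not overlap between the knockouts, against 43.7% of all. *Fth1* was higher by 0.35 ± 0.09 on the log2 scale (adjusted *P* = 0.0139, edgeR), with no overlap and in all 6 fits that left out a library. *Hmox1* was higher by 0.72 ± 0.24 (adjusted *P* = 0.0449), also without overlap, and lost the call without *F*-cKO replicates 1 or 2 (0.0713 and 0.147) or *M*-cKO replicates 2 or 3 (0.101 and 0.155). *Slc7a11* was higher by 1.03 ± 0.34 (adjusted *P* = 0.0446), with *M*-cKO replicate 1 inside the *F*-cKO range. Of the 6 fits that left out a library, it kept the call only in that without *M*-cKO replicate 1, where it was 1.39 (adjusted *P* = 0.00272), and the others had adjusted *P* between 0.0504 and 0.154. *Ftl1* was 0.21 ± 0.07 higher without a call (adjusted *P* = 0.0571), with no overlap, and was called by DESeq2 (0.0189), with no filter on low counts (0.0253), with all genotypes in a fit (0.0353) and without *F*-cKO replicate 3 (0.25, adjusted *P* = 0.0284). *Hmox1* lost its call with all genotypes in a fit (0.0586). In the same RNA-seq libraries the summed meningeal genes had a mean of 29.6 FPKM in *M*-cKO and 9.70 in *F*-cKO, microglial genes 43.6 and 26.9, and endothelial genes 66.1 and 54.4, and their part in these differences was not tested. None of the 10 genes was called between the knockouts in Ribo-seq or TE, where edgeR called no gene at all (background 0%, with 1154 and 541 genes at an unadjusted *P* below 0.05) and DESeq2 called 206 and 18 genes, none of them among the 10. *Fto* itself, at 2.85 ± 0.23 in Ribo-seq, was not called there by edgeR (adjusted *P* = 0.107). In Ribo-seq 1 of the 10 did not overlap, against 16% of all genes.

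Around the 10 genes, 6 lists of further pathway genes were counted, 105 genes in all, of which 100 were tested in RNA-seq and 98 in Ribo-seq. These lists, too, were drawn up with earlier results of the data known. In *F*-cKO RNA-seq 10 were called higher and 11 lower, which is 21% against the 21.1% of all genes. In *M*-cKO RNA-seq 18 were higher and 12 lower, 30% against 29.6%. In *M*-cKO Ribo-seq 3 were higher and 6 lower, 9.18% against 14.6%. With a library left out, the number called was 6 to 16 in *F*-cKO RNA-seq, lowest without Ctrl replicate 3, and 17 to 30 in *M*-cKO RNA-seq, lowest without the same library. It was 0 to 9 in *M*-cKO Ribo-seq, with 0 called without Ctrl replicate 1 or Ctrl replicate 2. In those fits the calls over all genes went from 2093 to 390 and 177. The shares with all libraries were near or below those of all genes.

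**Figure D5:**
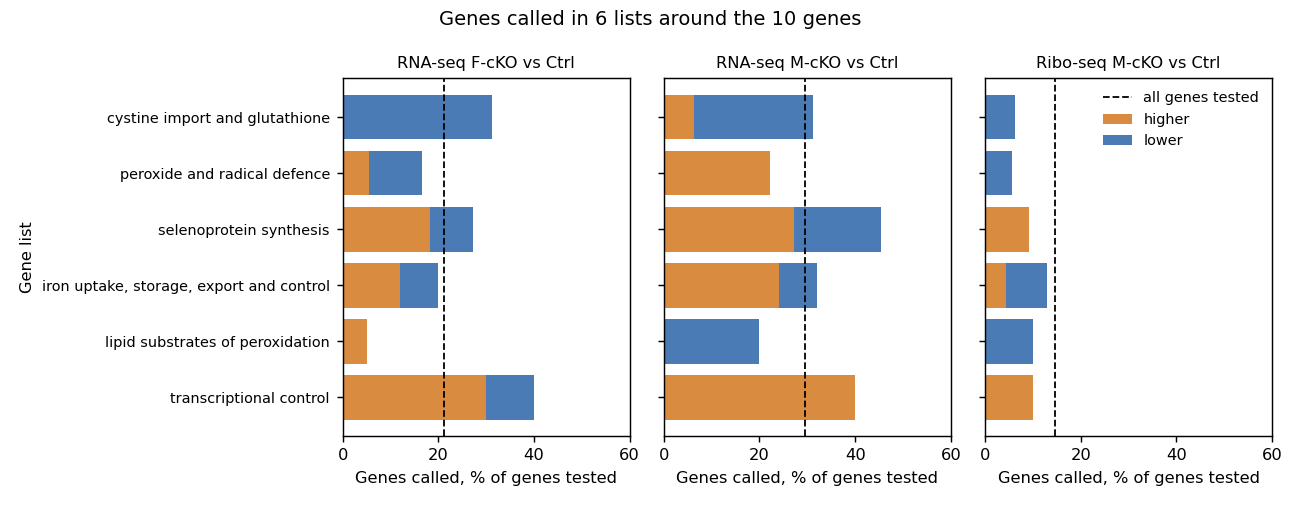
Share of the tested genes of each list that were called higher or lower at an adjusted *P* below 0.05, for 3 comparisons with Ctrl. The dashed line is the share of all genes tested (21.1%, 29.6% and 14.6%), and the bars lie on both sides of it in RNA-seq and below it in Ribo-seq.

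In the list of cystine import and glutathione genes, 5 of 16 were called lower in *F*-cKO RNA, against 9.57% of all genes, and none was called higher. They included *Mgst3*, a microsomal glutathione transferase (log2 fold change -0.48 ± 0.09, adjusted *P* = 0.00743, edgeR), and *Chac2*, which degrades glutathione (-0.64 ± 0.15, adjusted *P* = 0.0183). The list's median was -0.26, against -0.01 for all genes. In the same libraries the summed meningeal genes had a mean of 9.70 FPKM against 23.2 in Ctrl, endothelial genes 54.4 against 68.7, and microglial genes 26.9 against 38.3, and their part in these differences was not tested. In *M*-cKO RNA 1 was higher and 4 were lower, against 15.5% and 14.1% of all genes: *Cth*, which makes cysteine from cystathionine, was higher (0.66 ± 0.20, adjusted *P* = 0.0312), and *Cbs*, the preceding enzyme of transsulfuration, was lower (-0.38 ± 0.11, adjusted *P* = 0.0272), as was *Ggt7* (-0.26 ± 0.06, adjusted *P* = 0.00820). *Cbs* footprints were lower as well (-0.50 ± 0.13, adjusted *P* = 0.0440). *Ggt7* had a higher TE in *M*-cKO (0.76 ± 0.13, adjusted *P* = 0.0118).

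Over all genes, 11.5% were called higher and 9.57% lower in *F*-cKO RNA. Among 18 genes of peroxide and radical defence, *F*-cKO RNA had 1 higher, the thioredoxin reductase *Txnrd1* (0.21 ± 0.06, adjusted *P* = 0.0277, edgeR), and 2 lower, the superoxide dismutase *Sod1* (-0.24 ± 0.07, adjusted *P* = 0.0351) and *Gpx7* (-0.59 ± 0.18, adjusted *P* = 0.0445). *M*-cKO RNA had 4 higher, against 15.5% of all genes, among them *Prdx6* (0.35 ± 0.07, adjusted *P* = 0.00402) and *Gpx1* (0.32 ± 0.08, adjusted *P* = 0.00956), and none lower. The peroxiredoxin *Prdx1* had fewer footprints in *M*-cKO (-0.64 ± 0.18, adjusted *P* = 0.0492).

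The synthesis of selenoproteins such as GPX4 needs selenophosphate and a dedicated decoding machinery, represented by 11 genes. In *F*-cKO RNA, with 11.5% of all genes called higher and 9.57% lower, *Secisbp2l* (0.37 ± 0.06, adjusted *P* = 0.00417, edgeR) and *Sephs1* (0.31 ± 0.07, adjusted *P* = 0.0156) were higher, and *Selenop*, which carries selenium between cells, was lower (-0.66 ± 0.13, adjusted *P* = 0.00987). In *M*-cKO RNA 3 were higher and 2 lower, against 15.5% and 14.1% of all genes. *Sephs2*, the selenophosphate synthetase, was higher in RNA (0.60 ± 0.08, adjusted *P* = 4.449e-04) and in footprints (0.95 ± 0.15, adjusted *P* = 0.0134). *Sephs1* was higher (0.26 ± 0.07, adjusted *P* = 0.0175), while *Lrp8*, a receptor for selenoprotein P, was lower in RNA (-0.25 ± 0.06, adjusted *P* = 0.0110) and had a higher TE (0.66 ± 0.11, adjusted *P* = 0.0140). *Trit1*, which modifies the selenocysteine tRNA, was lower (-0.33 ± 0.10, adjusted *P* = 0.0225). *Gpx4* footprints were thus lower in *M*-cKO while those of *Sephs2* were higher.

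In iron handling, *F*-cKO RNA had 3 of 25 tested genes higher and 2 lower, against 11.5% and 9.57% of all genes. Both iron regulatory protein genes were among the former, *Ireb2* (0.32 ± 0.06, adjusted *P* = 0.00949, edgeR) and *Aco1* (0.29 ± 0.07, adjusted *P* = 0.0201). Lower were the mitochondrial iron importer *Slc25a28* (-0.27 ± 0.07, adjusted *P* = 0.0246) and the ferroxidase *Cp* (-1.22 ± 0.34, adjusted *P* = 0.0332). The summed meningeal (9.70 against 23.2 FPKM), endothelial (54.4 against 68.7) and microglial genes (26.9 against 38.3) were lower in the same *F*-cKO libraries as *Cp* and *Selenop*, and their part in these differences was not tested. In *M*-cKO RNA 6 were higher and 2 lower, against 15.5% and 14.1% of all genes. *Hmox2*, the constitutive haem oxygenase (0.53 ± 0.08, adjusted *P* = 6.223e-04), and *Aco1* (0.41 ± 0.06, adjusted *P* = 8.487e-04) were higher, and *Cisd2* (-0.23 ± 0.07, adjusted *P* = 0.0237) and the zinc and iron importer *Slc39a14* (-0.32 ± 0.11, adjusted *P* = 0.0420) were lower. For footprints in *M*-cKO, *Slc25a28* was higher (0.65 ± 0.16, adjusted *P* = 0.0357), and the iron chaperone *Pcbp2* (-0.53 ± 0.13, adjusted *P* = 0.0391) and *Cisd1* (-0.44 ± 0.12, adjusted *P* = 0.0460) were lower.

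Of 20 tested lipid genes, 1 was called in *F*-cKO RNA, against 21.1% of all genes: *Agps*, which makes ether lipids (0.22 ± 0.06, adjusted *P* = 0.0396, edgeR). In *M*-cKO RNA 4 were lower, against 14.1% of all genes, and none was higher. The stearoyl-CoA desaturase *Scd1*, which makes the monounsaturated fatty acids that resist peroxidation, was lower in RNA (-0.80 ± 0.14, adjusted *P* = 0.00145) and in footprints (-0.88 ± 0.20, adjusted *P* = 0.0313). *Pla2g6*, a phospholipase, was lower in RNA (-0.44 ± 0.10, adjusted *P* = 0.00829), and *Fads2*, the desaturase that starts the synthesis of long polyunsaturated fatty acids, was lower in footprints (-0.64 ± 0.12, adjusted *P* = 0.0174). No other lipid gene of the list was called in *M*-cKO footprints.

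Among 10 transcriptional regulators, *F*-cKO RNA had 3 higher and 1 lower, against 11.5% and 9.57% of all genes. *Bach1*, the haem-regulated repressor of *Hmox1* and the ferritin genes, was higher (0.49 ± 0.07, adjusted *P* = 0.00396, edgeR), as was *Trp53*, a repressor of *Slc7a11* (0.36 ± 0.08, adjusted *P* = 0.0156), and *Mafg*, which encodes a partner of BACH1 and NRF2, was lower (-0.24 ± 0.06, adjusted *P* = 0.0184). In *M*-cKO RNA 4 were higher, against 15.5% of all genes, and none lower. *Nfe2l2*, which encodes NRF2, was higher in RNA (0.83 ± 0.15, adjusted *P* = 0.00228) and in footprints (0.75 ± 0.15, adjusted *P* = 0.0203), from 5.42 to 6.51 RPKM in Ctrl to 7.85 to 11.5 RPKM in *M*-cKO. *Keap1*, its inhibitor, was higher in RNA (0.39 ± 0.07, adjusted *P* = 0.00140).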

How the data were processed

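RNA-seq and Ribo-seq libraries were grouped by the genotype in their labels. The counts per gene and the FPKM (RNA-seq) and RPKM (Ribo-seq) values were used as the authors deposited them. The submitters' processing notes name mm10, HISAT2 2.0.5, TopHat2 and HTSeq, and the tool that made the RNA-seq counts is not given in the sources used here. The 40490 Ribo-seq genes left blank in 8 libraries were not used. Gene symbols matched 54723 of 55153 RNA-seq rows, and loci and promoter windows are from RefSeq for GRCm38.p6. Labels call the replicates biological repeats.

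Counts were fitted over all genes with edgeR 4.0.16 in R 4.3.3 (filterByExpr with a minimum count of 10 and total of 15, TMM scaling, quasi-likelihood test, Benjamini-Hochberg adjustment, called below 0.05), each comparison on its own 6 libraries. Differences in TE were tested as an assay-by-genotype interaction in a joint fit of 12 libraries. RPKM and FPKM need not share a length definition, so TE levels are relative. The scripts were tested on simulated data. Alternatives were DESeq2 1.42.0, RLE scaling, no filter on low counts, all genotypes in a fit, the replicate number as a block, and each library left out. The 10 genes, the 6 pathway lists and the cell type lists were chosen with earlier results of these data known. Named pathway genes are, per list, comparison with Ctrl and direction, at most the 2 called genes with the smallest adjusted *P* whose groups do not overlap. Overlap was not checked for TE. Also named are gene copies with counts, both targeted genes, and the 3 genes most like *Gpx4* and *Slc7a11*.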

Additional observations from a re-analysis of the deposited data

How the results depend on the processing

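Of the 10 genes, the number called went from 3 to 1 in *F*-cKO RNA-seq and from 1 to 0 in *M*-cKO RNA-seq with the replicate number as a block, from 1 to 2 in *M*-cKO RNA-seq and from 3 to 5 in *M*-cKO against *F*-cKO RNA-seq with no filter on low counts, from 3 to 0 in *M*-cKO Ribo-seq with all 3 genotypes in a fit, and from 0 to 1 for *M*-cKO TE with DESeq2. The cause was not tested. With a library left out, it was 1 to 2 in *F*-cKO RNA-seq, 0 to 2 in *M*-cKO RNA-seq, 1 to 4 in *M*-cKO against *F*-cKO RNA-seq, 0 to 2 in *M*-cKO Ribo-seq, 0 to 1 for *M*-cKO TE and 0 in the other comparisons. Same-numbered libraries did not deviate together throughout (correlations from -0.32 to 0.22), and a library correlated best with its own number in 3 of 18 cases in RNA-seq and 11 of 18 in Ribo-seq, so the numbers were not taken to pair the samples. The block moved the calls over all genes from 3576 to 2130 in *F*-cKO RNA-seq and from 2093 to 1319 in *M*-cKO Ribo-seq, and of the pathway genes from 21 to 12 and from 9 to 4. With it 2 of the 10 genes were called in *M*-cKO Ribo-seq and 2 in *M*-cKO against *F*-cKO RNA-seq, and calls lost under the block were *Gclc* and *Slc7a11* in *F*-cKO RNA-seq, *Acsl4* in *M*-cKO RNA-seq and Ribo-seq, and *Hmox1* and *Slc7a11* between the knockouts, where *Ftl1* gained a call (0.20, adjusted *P* = 0.0471). *M*-cKO Ribo-seq calls over all genes fell to 35 with all genotypes in a fit, which then includes *F*-cKO replicate 2, and those of TE went from 405 to 11. DESeq2 called 3129 genes in *M*-cKO Ribo-seq and 1037 for *M*-cKO TE (2093 and 405 by edgeR). Of the pathway genes it called 20 and 7 (9 and 2 by edgeR), while a single fit of all genotypes called 0 of them in both. RLE scaling called 6 pathway genes in *M*-cKO Ribo-seq and 2007 genes in all. With a library left out, calls over all genes were 1543 to 3474 in *F*-cKO RNA-seq, 2767 to 4566 between the knockouts in RNA-seq, 177 to 2547 in *M*-cKO Ribo-seq, the lowest without Ctrl replicate 2, and 65 to 1054 for *M*-cKO TE. No called difference of the 10 genes changed direction. Uncalled ones near 0 did: *Slc7a11* footprints in *M*-cKO, at -0.013 on the log2 scale, became 0.0010 with DESeq2, 3.6e-04 with RLE scaling and 0.0083 with all genotypes in a fit, and *Gclc* TE in *M*-cKO, at 0.0066, became -0.019 with DESeq2 and -0.021 with RLE scaling. A library left out turned the direction of 34 uncalled log2 fold changes. The ranges in *F*-cKO RNA-seq were *Tfrc* -0.043 to 0.084 and *Hmox1* -0.21 to 0.30. The ranges in *M*-cKO RNA-seq were *Gpx4* -0.078 to 0.067 and *Slc7a11* -0.049 to 0.53. The ranges in *M*-cKO RNA-seq against *F*-cKO were *Gclm* -0.047 to 0.049. The ranges in *F*-cKO Ribo-seq were *Hmox1* -0.30 to 0.17, *Slc7a11* -0.050 to 0.34, *Tfrc* -0.029 to 2.25, *Gclc* -0.0095 to 0.17, *Gclm* -0.41 to 0.072, *Slc3a2* -0.26 to 1.63 and *Acsl4* -0.0099 to 0.53. The ranges in *M*-cKO Ribo-seq were *Tfrc* -0.11 to 0.30, *Gclm* -0.15 to 0.039, *Slc7a11* -0.27 to 0.15 and *Hmox1* -0.014 to 0.23. The ranges in *M*-cKO Ribo-seq against *F*-cKO were *Tfrc* -2.17 to 0.11, *Hmox1* -0.024 to 0.45, *Gclm* -0.13 to 0.35, *Slc3a2* -1.80 to 0.095 and *Gclc* -0.079 to 0.15. The ranges in *F*-cKO TE were *Hmox1* -0.43 to 0.21, *Gpx4* -0.47 to 0.011, *Tfrc* -0.048 to 2.03, *Gclm* -0.39 to 0.14, *Slc3a2* -0.20 to 1.55 and *Fth1* -0.15 to 0.36. The ranges in *M*-cKO TE were *Ftl1* -0.048 to 0.20, *Gclm* -0.033 to 0.18, *Slc7a11* -0.46 to 0.11, *Gclc* -0.062 to 0.092 and *Acsl4* -0.21 to 0.058. The ranges in *M*-cKO TE against *F*-cKO were *Tfrc* -1.86 to 0.33 and *Gclm* -0.062 to 0.42. RLE scaling moved no log2 fold change of the 10 genes by more than 0.0878. With 47 to 178 reads per RNA-seq library, *Hmox1* and *Slc7a11* had the lowest counts of the 10, and 3 libraries per group limit the precision of all.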
